A study of Mus musculus with 6 samples.

Results

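This account describes 38 genes of oxidative energy metabolism in HL-1 cells: 14 enzymes of the tricarboxylic acid (TCA) cycle and 24 proteins of fatty acid uptake, activation and β-oxidation. They were taken from a fixed list by their GENCODE M21 symbols, and all 38 were found among the 38087 gene identifiers of the count files. No member was removed by the filter on low counts, so each of the 38 was tested. HL-1 is an established mouse atrial cardiomyocyte line that keeps beating in culture. Messenger RNA was sequenced from 3 libraries of cells transfected with Circ-INSR siRNA, given as 100 nM and directed against a circular transcript of Insr, the insulin receptor gene, and from 3 libraries of cells transfected with a scrambled control siRNA. Both groups were the same line with no other treatment named, and nothing in the labels states that each library is its own culture. The p-values therefore reflect variation among these samples, and that variation may be technical.

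The TCA cycle oxidises the acetyl group of acetyl-CoA in the mitochondrial matrix and passes the electrons to the respiratory chain. β-oxidation feeds it by cutting fatty acyl chains into acetyl-CoA through a repeated sequence of dehydrogenation, hydration, a further dehydrogenation and thiolysis. Long chains must first be bound to coenzyme A by acyl-CoA synthetases and carried into mitochondria by the carnitine shuttle. In heart muscle fatty acids are a main fuel, and many of these genes are known targets of the PPAR and ERR nuclear receptors with their coactivator PGC-1.

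Promoter sequence is shown for 2 members on which the results below turn. Hadhb and Hadha lie head to head on chromosome 5, with 85 bases between their annotated 5′ ends, and yet only Hadhb passed the test. Acadm rose most among the 4 acyl-CoA dehydrogenase members. The windows run from 250 bases before to 50 bases after the RefSeq start on build GRCm38.p6, written 5′ to 3′ along the gene. The Hadhb window is chr5:30155003-30155302 on the plus strand, and the capitals mark the bases that separate the 5′ ends of Hadha and Hadhb in GENCODE M21. The Acadm window is chr3:153944594-153944893 on the minus strand, and the capitals mark AAGGTCA on the minus strand of the gene, a nuclear receptor element used by ERR factors, and GCATGCG on both strands, the core of the NRF1 site.
Hadhb: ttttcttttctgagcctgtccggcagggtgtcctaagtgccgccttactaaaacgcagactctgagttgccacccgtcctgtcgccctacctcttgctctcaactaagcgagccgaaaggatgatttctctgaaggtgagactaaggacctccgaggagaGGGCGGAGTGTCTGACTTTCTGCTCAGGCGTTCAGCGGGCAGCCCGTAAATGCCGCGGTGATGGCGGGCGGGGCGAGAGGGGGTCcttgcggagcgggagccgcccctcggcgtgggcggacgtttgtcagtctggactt
Acadm: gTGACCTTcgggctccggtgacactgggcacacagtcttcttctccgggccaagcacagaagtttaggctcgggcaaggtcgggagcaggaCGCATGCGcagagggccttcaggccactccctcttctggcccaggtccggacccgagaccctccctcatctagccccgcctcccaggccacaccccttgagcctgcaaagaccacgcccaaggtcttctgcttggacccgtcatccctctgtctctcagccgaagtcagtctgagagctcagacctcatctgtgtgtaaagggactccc

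Total counts lay between 68468620 and 77037474 in Circ-INSR siRNA libraries and between 60024750 and 62523602 in control libraries (exact two-sided permutation p = 0.1, the smallest that 3 against 3 can give). Control replicate 3 stood apart, its counts differing from the other controls by 31.1 and 21.6 units of chi-square for each gene, where control replicates 1 and 2 differed by 6.95. Gene counts of poly(A) RNA give no level of the circular RNA itself. The host gene Insr had 89.2, 89.2 and 89.2 CPM in Circ-INSR siRNA libraries against 129, 128 and 104 CPM in control libraries, where CPM is the count relative to the TMM-scaled library size. Of 16666 genes tested, 28.5% were called higher and 28.5% lower (edgeR, adjusted p under 0.05), which is the background against which each count of members is read. All 18 atrial cardiomyocyte markers were detected above the filter, with summed levels of 13278 to 13355 CPM in Circ-INSR siRNA and 11158 to 11769 CPM in control libraries. Of these 10 were higher and 5 lower. Nppa and Sln, which define atrial muscle, were low in both groups, at 16.4 and 0.892 CPM in Circ-INSR siRNA and 16.6 and 0.908 CPM in control libraries. Summed levels of endothelial markers were 95.3 to 98.4 CPM in Circ-INSR siRNA against 44.5 to 48.1 CPM in control libraries (2 of 5 tested higher, 1 lower). Most came from Kdr and Tek, which rose, and Egfl7, which fell. These averaged 71.7, 11.2 and 12.5 CPM in Circ-INSR siRNA and 24.2, 4.11 and 17.1 CPM in control libraries. Emcn was at 0 in all libraries, and Cdh5 and Vwf averaged at most 0.0807 CPM in either group. Smooth muscle markers summed to 6894 to 7134 CPM in Circ-INSR siRNA against 4595 to 4744 CPM in control libraries (4 of 6 higher, 1 lower), mostly from Acta2, while Myh11 averaged 2.01 CPM in Circ-INSR siRNA and 0.977 CPM in control libraries. Fibroblast markers summed to 477 to 512 CPM in Circ-INSR siRNA against 493 to 555 CPM in control libraries (2 of 5 tested higher, 1 lower). Most came from Ddr2, not called, at 351 CPM in Circ-INSR siRNA and 349 CPM in control libraries. Col1a1 fell, to 120 CPM against 169 CPM in control libraries, while Col3a1 and Col1a2 rose. Tcf21 was at 0, and Dcn, Lum and Thy1 averaged at most 0.0856 CPM. Leukocyte markers summed to 4.11 to 4.43 CPM in Circ-INSR siRNA against 6.78 to 7.93 CPM in control libraries, with 3 of 3 tested lower and Adgre1 at 0. The part of these markers in the results below was not tested, and in bulk RNA fewer cells of a type and less RNA per cell cannot be told apart.

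Across both pathways 19 of 38 members rose and 10 fell after Circ-INSR siRNA, and 9 were not called, so that 76.3% were called beside 57.0% of all genes. That background was not matched for level. By CPM, TCA cycle members lay at a median percentile of 95.8 among tested genes and fatty acid oxidation members at 84.2. The TCA cycle had 7 of 14 members higher and 3 lower, and fatty acid oxidation had 12 of 24 higher and 7 lower. As shares, 50% of each pathway's members were higher, against 28.5% of all genes, and 21.4% of TCA cycle members and 29.2% of fatty acid oxidation members were lower, against 28.5% of all genes. Median log2 fold changes were small, at 0.09 for the TCA cycle and 0.17 for fatty acid oxidation, beside -0.00 over all genes tested. The median size of the log2 fold change was 0.27 for fatty acid oxidation members and 0.16 for TCA cycle members. A called log2 fold change of at least 0.4 in size was found for 7 of 24 fatty acid oxidation members (29.2%) and 3 of 14 TCA cycle members (21.4%). Neither share was above the 30.7% of all genes. The summed level of TCA cycle members was 4437 ± 17.9 CPM in Circ-INSR siRNA and 4150.1 ± 46.3 CPM in control libraries (SD, n = 3 each), a ratio of 1.07. That of fatty acid oxidation members was 3128 ± 15.2 CPM in Circ-INSR siRNA and 2891 ± 61.1 CPM in control libraries, a ratio of 1.08. The groups did not overlap in either sum, and each exact two-sided permutation p was 0.1. For 30 of 38 members no library fell in the other group's range, beside 63.3% of all genes. Without control replicate 3, 8 TCA cycle members were higher and 3 lower, and 13 fatty acid oxidation members were higher and 7 lower.

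**Figure D1:**
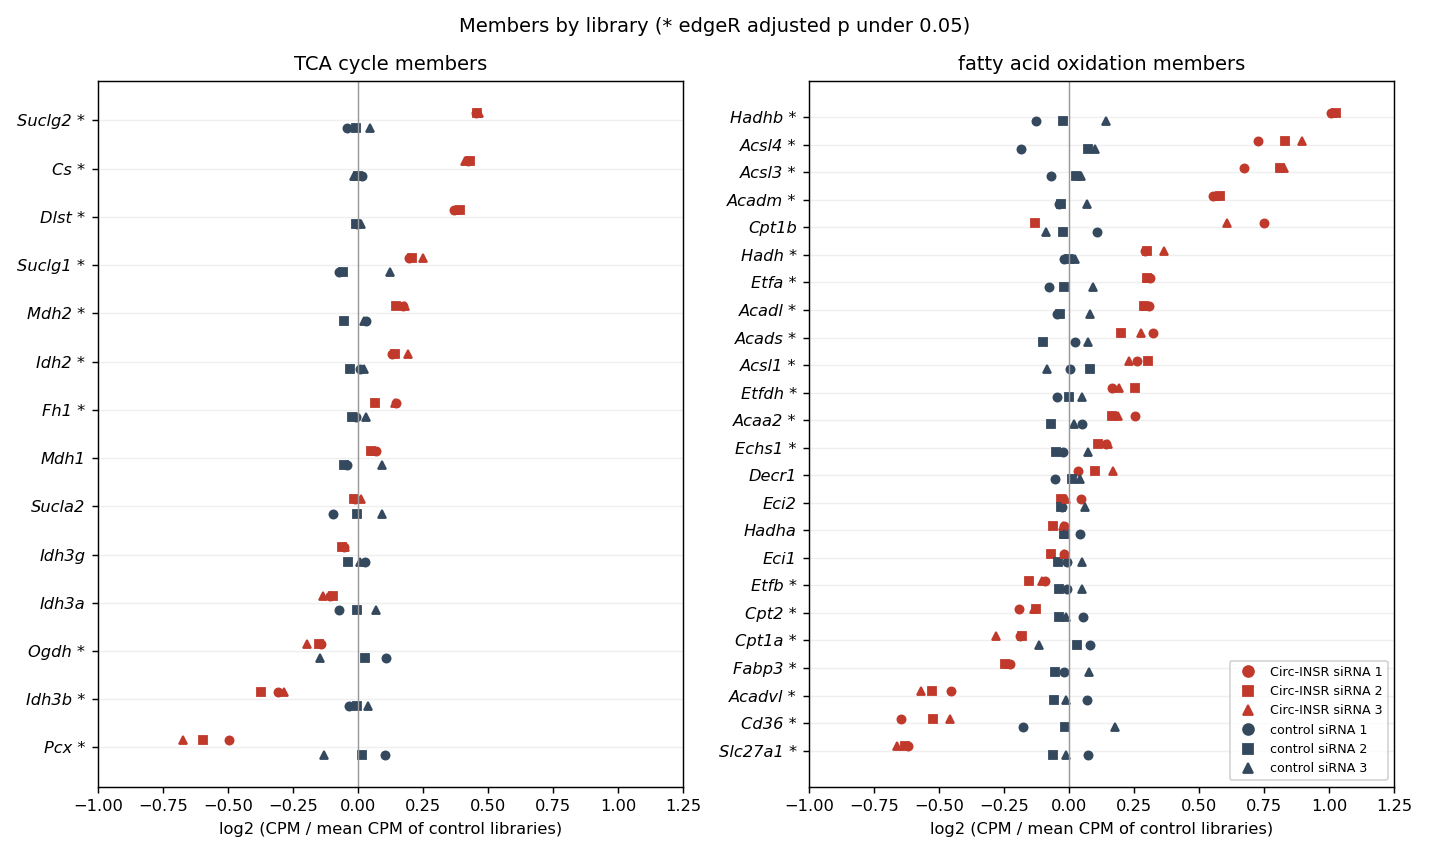
Each point is 1 library; the x axis is the log2 ratio of its CPM to the mean CPM of the 3 control libraries, with Circ-INSR siRNA libraries in red above control libraries in dark blue for each gene, and asterisks mark genes past the edgeR threshold. In the TCA panel Suclg2, Cs and Dlst stand highest and Pcx lowest; in the fatty acid panel Hadhb stands near 1.02 and Slc27a1 near -0.64, while the Circ-INSR siRNA libraries of Cpt1b are spread widely.

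Members of the TCA cycle were among the more abundant mRNAs of these cells. By mean CPM, 9 of 14 lay in the top 10% of tested genes, compared with 7 of 24 fatty acid oxidation members. Per length, as CPM per kilobase of annotated exon (RPKM), the median level was 56.7 in Circ-INSR siRNA and 59.9 in control libraries for the TCA cycle, and 25.4 in Circ-INSR siRNA and 24.3 in control libraries for fatty acid oxidation. The highest level was that of Fabp3, the heart-type fatty acid binding protein, at 447 ± 3.13 RPKM in Circ-INSR siRNA and 527 ± 25.0 RPKM in control libraries. The next places in control libraries were those of Mdh1, Idh2 and Etfb at 193 ± 10.96, 188 ± 3.71 and 179.9 ± 5.57 RPKM, and in that order the control libraries of Mdh1 overlapped those of Idh2, and those of Idh2 overlapped those of Etfb. At the bottom stood the membrane fatty acid transporter gene Slc27a1, the carnitine palmitoyltransferase gene Cpt1b and the fatty acid translocase gene Cd36, at 2.95, 4.92 and 1.604 RPKM in Circ-INSR siRNA and 4.59, 3.58 and 2.34 RPKM in control libraries. Control libraries overlapped in 17 of 37 neighbouring pairs of the order. Hadhb held place 25 in Circ-INSR siRNA libraries and place 31 in control libraries, and Pcx place 27 in Circ-INSR siRNA and place 18 in control libraries. The length used is that of all annotated exons of a gene.

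**Figure D2:**
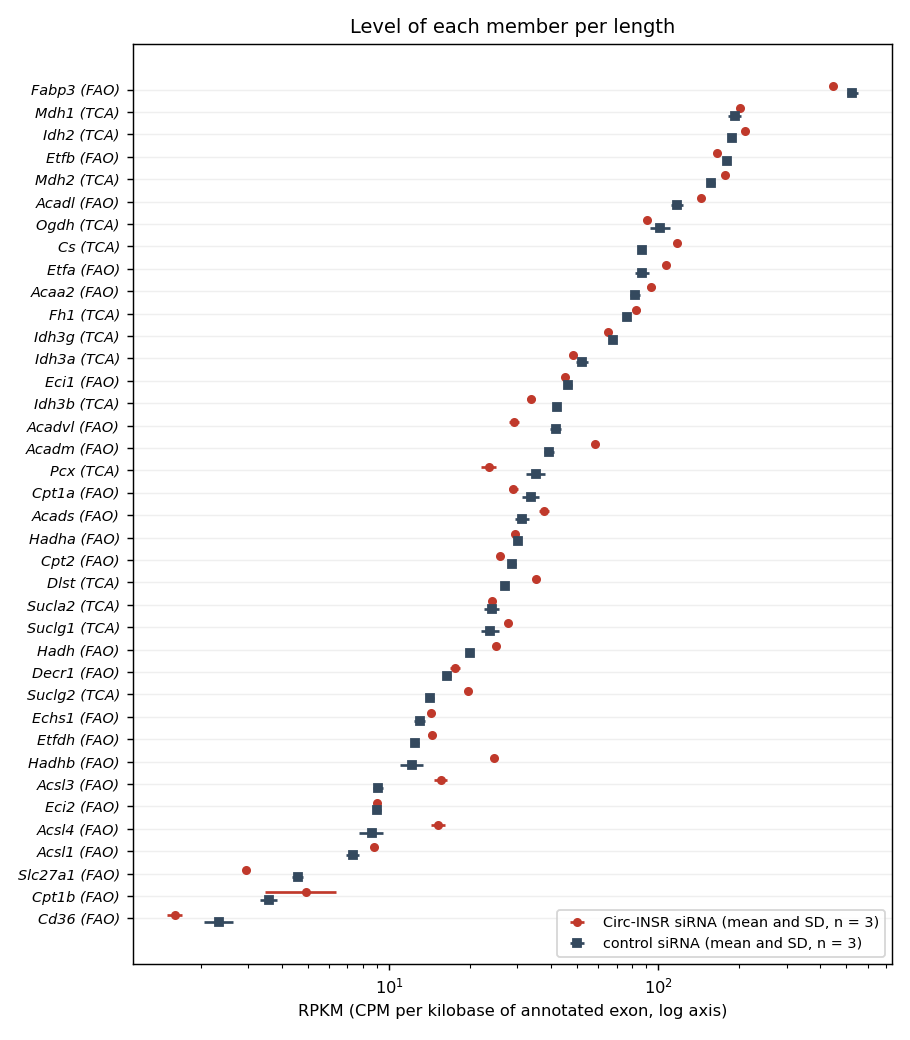
Mean RPKM with SD (n = 3 libraries) for each member on a log axis, Circ-INSR siRNA as red circles and control siRNA as dark blue squares, ordered by the control level. Fabp3 is at the top at 447 and 527 RPKM and Cd36 at the bottom at 1.604 and 2.34 RPKM, and the groups stand visibly apart for Hadhb, Acadm, Acsl3, Acsl4, Pcx and Slc27a1.

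In the segment of the cycle that runs to 2-oxoglutarate, citrate synthase rose while subunits of NAD-dependent isocitrate dehydrogenase did not. Cs (ENSMUSG00000005683, mm10 chromosome 10, 128337734 to 128362479, plus strand) encodes citrate synthase, which joins acetyl-CoA to oxaloacetate. It had 677, 681 and 671 CPM in Circ-INSR siRNA libraries against 510.2, 505 and 499 CPM in control libraries. The groups were widely apart, with a log2 fold change of 0.42 (SE 0.04; edgeR adjusted p = 1.39e-06). Idh2, the NADP-dependent mitochondrial isocitrate dehydrogenase, also rose, to 543 ± 13.1 CPM in Circ-INSR siRNA against 488 ± 9.59 CPM in control libraries (log2 fold change 0.15, SE 0.04). The NAD-dependent enzyme is built from the products of Idh3a, Idh3b and Idh3g, of which Idh3a encodes the catalytic subunit. Idh3b fell, with a log2 fold change of -0.32 (SE 0.04; edgeR adjusted p = 6.67e-05), with 115 ± 3.60 CPM in Circ-INSR siRNA and 144 ± 3.63 CPM in control libraries. Idh3a and Idh3g were at -0.11 and -0.06 (SE 0.05 and 0.04) and were not called, with edgeR adjusted p of 0.0522 and 0.268. Idh3a lay at the threshold and was called lower in 7 of the 16 alternative settings tried.

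From 2-oxoglutarate to succinate, the subunits of each enzyme differed in their values. Ogdh and Dlst encode the E1 and E2 components of the 2-oxoglutarate dehydrogenase complex. Dlst (ENSMUSG00000004789, chromosome 12, 85110833 to 85134845, plus strand) had 333, 338 and 334 CPM in Circ-INSR siRNA libraries against 257, 256 and 259 CPM in control libraries. It rose by 0.38 (SE 0.04; edgeR adjusted p = 5.19e-06). Ogdh (ENSMUSG00000020456, chromosome 11, 6291633 to 6356642, plus strand) had 503, 501 and 485 CPM against 598, 566 and 503 CPM in control libraries. Its groups overlapped, since control replicate 3 was as low as the Circ-INSR siRNA libraries, and its log2 fold change was -0.16 (SE 0.06; edgeR adjusted p = 0.0296). That call was lost in 5 of 16 settings, each of them without 1 library, with adjusted p up to 0.115, and without control replicate 3 it was kept, at -0.23.

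Succinyl-CoA ligase joins an alpha subunit, encoded by Suclg1, to a beta subunit that decides the nucleotide, encoded by Suclg2 for the GDP-forming and by Sucla2 for the ADP-forming enzyme. Suclg2 (ENSMUSG00000061838, chromosome 6, 95473009 to 95718800, minus strand) had 90.4, 90.6 and 91.0 CPM in Circ-INSR siRNA libraries against 64.0, 65.5 and 68.1 CPM in control libraries, a log2 fold change of 0.46 (SE 0.04; edgeR adjusted p = 2.85e-06). Suclg2 was the TCA cycle member with the largest rise. Suclg1 rose by 0.22 (SE 0.06), with 128 ± 2.40 CPM in Circ-INSR siRNA and 109.8 ± 8.55 CPM in control libraries. Sucla2 was at 95.9 ± 0.957 CPM in Circ-INSR siRNA and 96.2 ± 6.35 CPM in control libraries and was not called (edgeR adjusted p = 0.944).

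The last steps of the cycle are catalysed by fumarase and malate dehydrogenase. Mdh2, the mitochondrial malate dehydrogenase, rose by 0.17 (SE 0.04), with 629 ± 8.47 CPM in Circ-INSR siRNA and 561 ± 18.4 CPM in control libraries. Mdh1, its cytosolic counterpart in the malate-aspartate shuttle, was at 515 ± 3.41 CPM in Circ-INSR siRNA and 494 ± 28.1 CPM in control libraries and was not called. Fh1, fumarase, was called higher at 0.12 (SE 0.04; edgeR adjusted p = 0.0299), and the call was lost in 6 of 16 settings, with adjusted p up to 0.179.

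Pcx, pyruvate carboxylase, refills the cycle by making oxaloacetate from pyruvate. It is the TCA cycle member that fell most (ENSMUSG00000024892, chromosome 19, 4510472 to 4621752, plus strand). Its libraries had 119, 111 and 105 CPM after Circ-INSR siRNA against 180.1, 169 and 153 CPM in control libraries. No library of either group reached the range of the other, and the log2 fold change was -0.59 (SE 0.06; edgeR adjusted p = 1.02e-05). Over the alternatives it ranged from -0.64 to -0.49.

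All 3 members of uptake and binding fell. Slc27a4, Fabp4 and Fabp5, outside the members, are named after their values were seen. Slc27a4 was not called (log2 fold change -0.11, SE 0.06; edgeR adjusted p = 0.132). Fabp4 and Fabp5 were called lower but scarce, at 0.714 and 0.487 CPM in Circ-INSR siRNA and 1.47 and 1.20 CPM in control libraries. Slc27a1, a fatty acid transport protein (ENSMUSG00000031808, chromosome 8, 71568882 to 71587302, plus strand), had 17.4, 17.3 and 16.9 CPM in Circ-INSR siRNA libraries against 28.2, 25.6 and 26.5 CPM in control libraries, with a log2 fold change of -0.64 (SE 0.06; edgeR adjusted p = 1.78e-06). Cd36, the fatty acid translocase, was scarce (ENSMUSG00000002944, chromosome 5, 17781690 to 17888801, minus strand). It had 5.35, 5.83 and 6.09 CPM in Circ-INSR siRNA libraries against 7.40, 8.29 and 9.46 CPM in control libraries, and fell by 0.54 (SE 0.10; edgeR adjusted p = 0.000668). Neither gene's groups overlapped. Fabp3, which carries fatty acids in the cytosol, fell by 0.24 (SE 0.04), with 367 ± 2.57 CPM in Circ-INSR siRNA and 434 ± 20.6 CPM in control libraries.

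The 3 long-chain acyl-CoA synthetase genes among the members rose, while Acsl5 and Acsl6, of the same family but outside the members, fell (log2 fold changes -0.61 and -1.28, SE 0.04 and 0.13). Acsl6 is named here after its values were seen, and it was scarce, at 1.24 CPM in Circ-INSR siRNA and 3.01 CPM in control libraries. Acsl4, whose enzyme prefers arachidonic acid (ENSMUSG00000031278, chromosome X, 142317993 to 142390535, minus strand), had 77.2, 82.9 and 86.7 CPM in Circ-INSR siRNA libraries against 41.0, 49.0 and 49.9 CPM in control libraries (log2 fold change 0.82, SE 0.07; edgeR adjusted p = 2.65e-06). Acsl3, a synthetase of the endoplasmic reticulum and lipid droplets (ENSMUSG00000032883, chromosome 1, 78657825 to 78707743, plus strand), had 63.2, 69.6 and 70.4 CPM against 37.7, 40.3 and 40.9 CPM in control libraries (log2 fold change 0.77, SE 0.05; edgeR adjusted p = 3.11e-07). Acsl1, the main synthetase of heart (ENSMUSG00000018796, chromosome 8, 46471037 to 46536051, plus strand), had 92.4, 95.0 and 90.3 CPM against 77.2, 81.4 and 72.6 CPM in control libraries (log2 fold change 0.26, SE 0.05; edgeR adjusted p = 0.000786). No group overlapped for any of these genes. The summed level of the 3 member synthetases was 243 ± 8.41 CPM in Circ-INSR siRNA and 163 ± 7.40 CPM in control libraries, a ratio of 1.48. Per length, the means of Acsl3 and Acsl4 were above that of Acsl1 in both groups, by the most after Circ-INSR siRNA. For Acsl3, Acsl4 and Acsl1 they were 15.5, 15.2 and 8.83 RPKM, compared with 9.10, 8.63 and 7.35 RPKM in control libraries. The control libraries of Acsl4 and Acsl1 overlapped. That order rests on exonic lengths of 4357, 5405 and 10483 bases, and 1039 bases of Acsl1 overlap Gm45244 on the opposite strand. By CPM, Acsl1 was the highest of the 3 in both groups.

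Of the 3 members of the carnitine shuttle, 2 fell. Outside the members, and named after their values were seen, Slc25a20, the carnitine-acylcarnitine translocase of the same shuttle, rose by 0.21 (SE 0.05; edgeR adjusted p = 0.0048), and Crat, carnitine acetyltransferase, was not called (log2 fold change 0.00, SE 0.04). Cpt1a, the liver-type carnitine palmitoyltransferase of the outer membrane (ENSMUSG00000024900, chromosome 19, 3322334 to 3385733, plus strand), had 226, 227 and 212 CPM in Circ-INSR siRNA libraries against 272, 263 and 237 CPM in control libraries, and fell by 0.22 (SE 0.05; edgeR adjusted p = 0.00511). Cpt2, its partner on the inner membrane, fell by 0.15 (SE 0.04), with 61.6 ± 1.53 CPM in Circ-INSR siRNA and 68.5 ± 2.22 CPM in control libraries. Cpt1b, the muscle isoform (ENSMUSG00000078937, chromosome 15, 89416405 to 89425863, minus strand), had 20.3, 11.03 and 18.4 CPM against 13.0, 11.9 and 11.4 CPM in control libraries. Circ-INSR siRNA replicate 2 lay below every control library and the other replicates above all of them, so Cpt1b was not called (log2 fold change 0.45, SE 0.24; edgeR adjusted p = 0.154). Without that replicate its log2 fold change was 0.68 with adjusted p = 7.01e-05. In both groups Cpt1a, not the muscle isoform, was the more abundant per length, at 29.0 against 4.92 RPKM after Circ-INSR siRNA and 33.7 against 3.58 RPKM in control libraries. Cpt1b shares 2744 exonic bases on its strand with the annotated gene Gm44502, so reads of the pair may have been divided between them.

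Acyl-CoA dehydrogenases start each round of β-oxidation, and 3 of the 4 members rose. Acadvl, the very-long-chain enzyme of the inner membrane, fell, while Acadl, Acadm and Acads, the long-, medium- and short-chain enzymes of the matrix, rose. Acadsb, Acad9, Acad10 and Acad11, family genes outside the members, all fell, with log2 fold changes of -0.47, -0.27, -1.11 and -0.94. The first 3 of these are named after their values were seen. Acadm (ENSMUSG00000062908, chromosome 3, 153922357 to 153944632, minus strand) had 225, 229 and 227 CPM in Circ-INSR siRNA libraries against 149, 150.2 and 161 CPM in control libraries. The groups stood far apart, with a log2 fold change of 0.57 (SE 0.04; edgeR adjusted p = 6.90e-07). Acads, the short-chain enzyme (ENSMUSG00000029545, chromosome 5, 115110299 to 115119346, minus strand), had 88.7, 81.4 and 85.8 CPM against 72.1, 66.1 and 74.6 CPM in control libraries and rose by 0.27 (SE 0.05). Acadl, the long-chain enzyme, rose by 0.30 (SE 0.05), with 289 ± 2.10 CPM in Circ-INSR siRNA and 236 ± 11.7 CPM in control libraries. Acadvl (ENSMUSG00000018574, chromosome 11, 70010183 to 70015411, minus strand) had 81.6, 77.5 and 75.2 CPM against 117, 107 and 111 CPM in control libraries, a log2 fold change of -0.52 (SE 0.05; edgeR adjusted p = 3.88e-06). Acadvl shares 1151 exonic bases with Dvl2 on the opposite strand, and the strand setting of the counting is not given in the sources used here.

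The later steps for long chains are carried out by the mitochondrial trifunctional protein, whose alpha subunit (Hadha) holds the hydratase and dehydrogenase and whose beta subunit (Hadhb) holds the thiolase. Hadhb (ENSMUSG00000059447, chromosome 5, 30155248 to 30184593, plus strand) had 161, 163 and 162 CPM in Circ-INSR siRNA libraries against 73.4, 78.9 and 88.6 CPM in control libraries. Its log2 fold change of 1.02 (SE 0.06; edgeR adjusted p = 9.76e-08) was the largest of the 38 members and placed it 495th among the 16666 genes tested. Hadha (ENSMUSG00000025745, chromosome 5, 30118304 to 30155162, minus strand) had 259, 251 and 258 CPM against 270.4, 259 and 258 CPM in control libraries, which overlapped. It was not called (log2 fold change -0.04, SE 0.04; edgeR adjusted p = 0.474). The Hadhb and Hadha windows overlap by 228 bases, and the shared stretch lies within the sequence printed above.

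For shorter chains the same steps have separate enzymes, of which the 3 members rose. Outside the members, and named after their values were seen, the hydroxyacyl-CoA dehydrogenase gene Hsd17b10 and the thiolase gene Acat1 were called lower, at -0.22 and -0.11 on the log2 scale (SE 0.05 and 0.04; edgeR adjusted p = 0.00239 and 0.0497). Hadh, the hydroxyacyl-CoA dehydrogenase, rose by 0.32 (SE 0.04), with 124 ± 3.55 CPM in Circ-INSR siRNA and 99.7 ± 1.44 CPM in control libraries. Acaa2, the thiolase, rose by 0.20 (SE 0.05), with 143 ± 4.73 CPM in Circ-INSR siRNA and 124 ± 5.26 CPM in control libraries. Echs1, the hydratase, was called higher at 0.13 (SE 0.05; edgeR adjusted p = 0.0271), a call lost in 8 of 16 settings, with adjusted p up to 0.149. The isomerases and the reductase among the members that prepare unsaturated chains gave no call. Eci1, Eci2 and Decr1 were at -0.04, 0.00 and 0.10 (SE 0.04, 0.05 and 0.05), with edgeR adjusted p of 0.492, 0.997 and 0.1. The isomerase gene Ech1 and the reductase gene Decr2, outside the members, are named after their values were seen. Ech1 was called lower at -0.36 (SE 0.05; edgeR adjusted p = 2.91e-05), and Decr2 was not called (edgeR adjusted p = 0.904).

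Electron transfer flavoprotein takes the electrons of the acyl-CoA dehydrogenases and hands them to the ubiquinone pool through its oxidoreductase. Etfa, its alpha subunit, rose by 0.30 (SE 0.05), with 197 ± 0.867 CPM in Circ-INSR siRNA and 159.5 ± 9.66 CPM in control libraries. Etfdh, the oxidoreductase, rose by 0.20 (SE 0.05), with 108 ± 3.32 CPM in Circ-INSR siRNA and 93.9 ± 3.25 CPM in control libraries. Etfb, the beta subunit, was at 193 ± 4.45 CPM in Circ-INSR siRNA and 209 ± 6.49 CPM in control libraries and was called lower at -0.12 (SE 0.04; edgeR adjusted p = 0.034). Of its 1164 exonic bases, 678 overlap Gm45233 and Mir7051 on the same strand, so its level, its call and its ratio to Etfa are uncertain. That call was lost in 5 of 16 settings, and after removal of a trend with exonic length and GC the value was -0.03 with adjusted p = 0.395.

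Ratios of partners within a library do not depend on how libraries are scaled. Among 13 pairs of subunits or isoforms, compared as reads per kilobase, the groups did not overlap for 10. The pairs were chosen with earlier results known, and 63.3% of single genes also did not overlap, so the count is a description. Each of these had an exact two-sided permutation p of 0.1, the smallest possible, and 0.13 after Benjamini-Hochberg adjustment over the 13 pairs, so none could pass the threshold in this design. The Hadhb to Hadha ratio was 0.840 in Circ-INSR siRNA and 0.404 in control libraries (geometric means, n = 3 each). On the log2 scale it was -0.28, -0.22 and -0.26 in Circ-INSR siRNA libraries against -1.48, -1.31 and -1.14 in control libraries, a difference of 1.06. The Acads to Acadvl ratio crossed 1, at 1.29 in Circ-INSR siRNA and 0.751 in control libraries, a log2 difference of 0.78. Suclg2 to Sucla2 was 0.815 in Circ-INSR siRNA and 0.591 in control libraries, and Dlst to Ogdh 0.385 in Circ-INSR siRNA and 0.265 in control libraries, with log2 differences of 0.46 and 0.54.

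Of the other ratios, some were lower after Circ-INSR siRNA and some did not separate. Acadm to Acadl and Cpt1b to Cpt1a were higher, without overlap of the groups. Acadm to Acadl was 0.402 in Circ-INSR siRNA and 0.334 in control libraries, a log2 difference of 0.27. Etfb to Etfa was 1.54 in Circ-INSR siRNA and 2.07 in control libraries. Acsl1 to Acsl3 was 0.568 in Circ-INSR siRNA, and Idh3b to Idh3a 0.698, while both were 0.807 in control libraries. The log2 difference of Etfb to Etfa was -0.42, and -0.31 once the length and GC trend was removed. Acsl4 to Acsl3 was 0.979 in Circ-INSR siRNA and 0.945 in control libraries, and its groups overlapped, as did those of Idh3g to Idh3a and Eci2 to Eci1. Cpt1b to Cpt1a was 0.164 in Circ-INSR siRNA and 0.106 in control libraries, where Circ-INSR siRNA replicate 2 at -3.18 on the log2 scale lay close to the control range of -3.29 to -3.20. Without that replicate the log2 difference of that pair was 0.91, compared with 0.63 with all libraries.

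**Figure D3:**
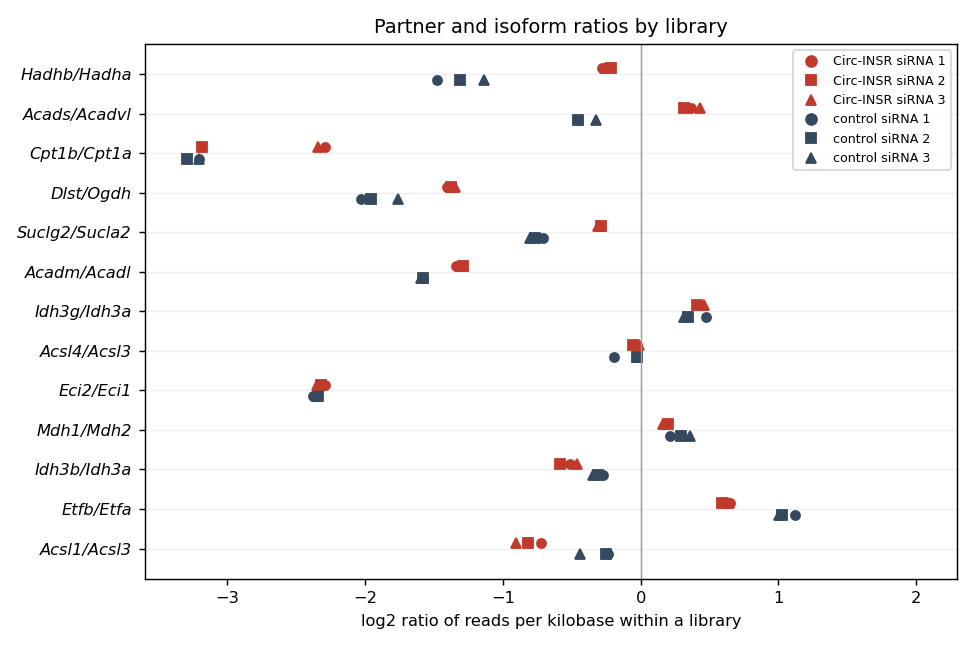
Each point is 1 library; the x axis is the log2 ratio of reads per kilobase of the named pair, Circ-INSR siRNA in red above control siRNA in dark blue, with pairs ordered by the difference between group means. Hadhb/Hadha at the top separates by 1.06, Acsl1/Acsl3 at the bottom by -0.51, and the groups of Acsl4/Acsl3, Idh3g/Idh3a and Eci2/Eci1 overlap.

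The rest of both pathways was read from lists of further genes, beside the 28.5% of all genes called in each direction. Of 20 other genes of the TCA cycle and anaplerosis, 12 rose and 2 fell, with a median log2 fold change of 0.17. Slc25a1, the citrate carrier that exports citrate from mitochondria, rose to 56.3 ± 2.40 CPM in Circ-INSR siRNA against 20.7 ± 0.475 CPM in control libraries, a log2 fold change of 1.44 (SE 0.05; edgeR adjusted p = 2.75e-09). Idh1, the cytosolic NADP-dependent isocitrate dehydrogenase, rose by 1.07 (SE 0.06), and Aco1, the cytosolic aconitase, by 0.77 (SE 0.05). Me1, the cytosolic malic enzyme, fell to 149 ± 6.41 CPM in Circ-INSR siRNA against 213 ± 9.59 CPM in control libraries, a log2 fold change of -0.51 (SE 0.05). The count of lower genes in that list was 1 when any library other than control replicate 3 was left out.

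Of 29 other genes of fatty acid metabolism, which include peroxisomal enzymes, 16 fell and 4 rose, with a median of -0.19, the opposite sign to that of the 24 members. Acox3, a peroxisomal acyl-CoA oxidase, fell by 1.14 (SE 0.07), to 17.0 ± 0.848 CPM in Circ-INSR siRNA against 37.6 ± 2.83 CPM in control libraries. Mlycd, malonyl-CoA decarboxylase, which relieves the block on carnitine palmitoyltransferase, fell by 0.95 (SE 0.05), and Acad11, an acyl-CoA dehydrogenase, had a log2 fold change of -0.94 (SE 0.06). Acsl5, another long-chain acyl-CoA synthetase, fell by 0.61 (SE 0.04), where the members Acsl1, Acsl3 and Acsl4 rose. The edgeR adjusted p was 5.27e-08 for Mlycd and 3.77e-07 for Acsl5, with Acox3 and Acad11 between them.

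Regulators went both ways, with 8 of 20 tested higher (40%) and 6 lower (30%), beside 28.5% of all genes in each direction. Esrrb was too low to test. Gabpa, the DNA-binding subunit of GABP, rose by 0.69 (SE 0.05), Ppargc1a, which encodes PGC-1α, by 0.44 (SE 0.05), and Ppara, the fatty acid receptor PPARα, by 0.98 (SE 0.12). Ppara was scarce, at 5.69 ± 0.6001 CPM in Circ-INSR siRNA and 2.89 ± 0.313 CPM in control libraries. Apart from Lpin1, the other genes of that list are named after their values were seen. Ppargc1b, Pprc1, Tfam, Nrf1 and Prkaa1 rose by 0.68, 0.27, 0.38, 0.21 and 0.18 (SE 0.09, 0.07, 0.05, 0.05 and 0.05). Nrip1 fell by 0.39 (SE 0.07). Ppard, the more abundant PPAR gene, fell by 0.49 (SE 0.07), to 65.6 ± 2.87 CPM in Circ-INSR siRNA against 92.3 ± 9.59 CPM in control libraries. Esrra, Rxra and Rxrb fell by 0.22, 0.38 and 0.18 (SE 0.05, 0.08 and 0.04), and Pparg and Esrrg were not called. Lpin1, a phosphatidate phosphatase and coactivator, fell by 0.78 (SE 0.06). In the list of PPAR target genes outside the members, 9 were lower and 0 higher of 13 tested, with a median of -0.37. In that list 0 were higher at an unadjusted edgeR p under 0.05 in the main fit. At the adjusted threshold 0 were higher with DESeq2 or in any other of the 16 alternative settings. The list was chosen with earlier results known, and PPAR targets placed among the members or in other lists are not counted in it. Pdk4, the kinase that inhibits pyruvate dehydrogenase, fell to 51.9 ± 1.35 CPM in Circ-INSR siRNA against 89.7 ± 1.20 CPM in control libraries. Lpl, lipoprotein lipase, Plin2, a lipid droplet coat protein, and Fgf21, a secreted hormone, also fell. Their log2 fold changes were -0.76 for Lpl, -0.69 for Plin2 and -2.09 for Fgf21 (SE 0.05, 0.04 and 0.20). Fgf21 was scarce, at 0.707 ± 0.239 CPM in Circ-INSR siRNA and 2.98 ± 0.218 CPM in control libraries.

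**Figure D4:**
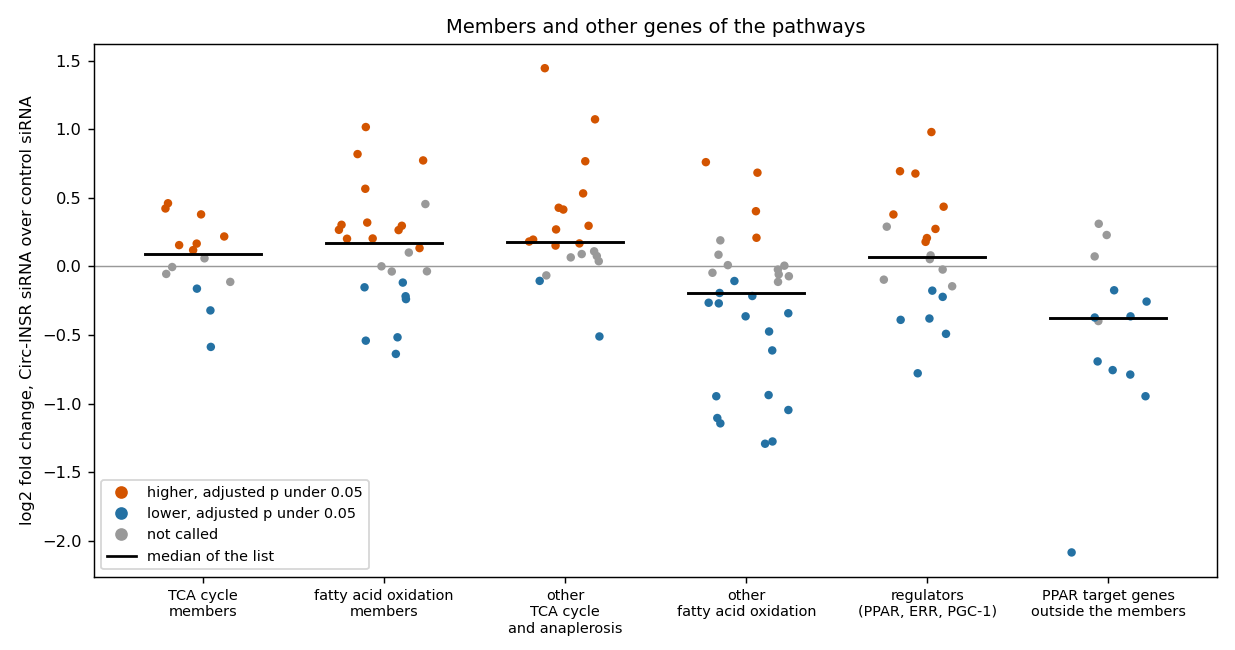
Each point is 1 tested gene; the y axis is the log2 fold change of Circ-INSR siRNA over control siRNA, colours show the edgeR call and black bars the median of each list. Medians are 0.09 and 0.17 for the member lists, 0.17 for other TCA cycle genes, -0.19 for other fatty acid genes, 0.07 for regulators and -0.37 for PPAR targets outside the members.

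Promoter windows were found for 34 of the 38 members, and 4 short motifs were searched on both strands. AAGGTCA was in 1 of the 34 windows, that of Acadm, beside 4.66% of 27025 promoters. GCATGCG was in 3 windows, those of Acadm, Etfa and Etfdh, or 8.82%, beside 3.64% of all promoters. All 3 genes were called higher, as were 18 of the 34 members with a window. CCGGAAG, an ETS site bound by GABP, was in 4 windows, those of Idh3b, Idh3g, Dlst and Cpt2, or 11.8%, beside 9.12%. Of those, Dlst was higher, Idh3b and Cpt2 lower and Idh3g not called. CCAAT was in 17 windows, or 50%, beside 37.9% of all promoters, with 8 of 18 higher members and 7 of 10 lower members. None of these motifs was in the Hadhb window. The 2 GCATGCG matches of Acadm, on opposite strands, overlap each other. A match is only a match of letters, and these counts are a description.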

How the data were processed

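Gene counts of 6 poly(A)-selected, directional HL-1 libraries were used. The authors deposited raw counts per Ensembl gene without normalization; the submitters' processing notes name build mm10, STAR 2.5.0c, featureCounts 1.6.4 and StringTie 1.3.5, with no role or order. Not given in the sources used here were the annotation release, the strand setting and how multi-mapped reads were handled, so genes that overlap others (9 members on the opposite strand, 3 on the same strand) are less certain. In every file genes at a count of 2 outnumbered genes at 1, as happens when each mate is counted.

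Symbols, positions and union exon lengths came from GENCODE M21 on the same build, which held 36308 (95.3%) of 38087 identifiers. Counts were filtered with filterByExpr (minimum count 10, minimum total count 15), scaled with TMM factors of 0.983 to 1.03 (trimmed mean of M values) and tested with the robust quasi-likelihood F-test of edgeR 4.0.16 in R 4.3.3, fitted on group alone, with Benjamini-Hochberg adjustment over 16666 genes (threshold 0.05). The coefficient of variation between replicates was 6.09%. Standard errors (SE) are the size of the log2 fold change over the root of F. The steps were tested on simulated data. A count of 3 equals 0.0389 to 0.0500 CPM. Promoter windows came from RefSeq (GRCm38.p6).

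The members, gene lists and pairs were chosen with earlier results of these data known. All members are named. CPM per library is given for members called with a log2 fold change of at least 0.4 in size and for members of pairs whose log2 ratio differed by at least 0.5. From each other list the 4 called genes with the smallest adjusted p are named. Other genes of those lists are named where the text says so. Alternatives were other scalings and filters, DESeq2 1.42.0, limma-voom (limma 3.58.1), the replicate number as a block, halved counts, removal of a per-library trend on length and GC content, and each library left out.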

Additional observations from a re-analysis of the deposited data

How the results depend on the processing

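Counts of members called stayed within 1.5 times in all 16 alternative settings. With total counts or upper quartile scaling 6 TCA cycle members were higher and 4 lower, and 11 fatty acid oxidation members higher and 7 lower. The TCA cycle members median log2 fold change moved beyond the spread of library medians with total counts, to 0.0433, and without control siRNA replicate 3, to 0.12. The fatty acid oxidation members median log2 fold change moved with total counts, to 0.12; total-count scaling moves the median of all genes to -0.05. With 1 library left out the medians ranged from 0.0689 to 0.12 and from 0.14 to 0.20. Other TCA cycle genes called lower numbered 1 in place of 2 with no filter on low counts, with DESeq2 and after removal of the length and GC trend, and 1 to 2 with 1 library left out; for these the cause was not tested.

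Of 38 members, 29 kept their side of the threshold in every setting and 0 were reversed. Cpt2, Echs1, Etfb, Fh1 and Ogdh lost their call in at least 1, and Cpt1b, Decr1, Idh3a and Mdh1 gained one, Mdh1 without control siRNA replicate 3 (0.11, adjusted p = 0.00593). Where a library is left out of 3, the edgeR fit pools the spread over the remaining 5.

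Replicate numbers are shared by the titles only. Deviations of same-numbered libraries correlated at 0.02, 0.07 and 0.04, and each library correlated best with its own number. Deviations from a mean of 3 libraries depend on each other, so this is at most a weak hint, and pairing was not tested. With the replicate block 7 TCA cycle members were higher and 4 lower, 13 fatty acid oxidation members were higher and 7 lower, and Idh3a and Decr1 passed the threshold. Depth limits the scarce members most: Cd36 rested on 360 to 594 counts in a library and Cpt1b on 713 to 1366.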
